A study of Mus musculus with 2931 samples.

Results

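Lymphatic endothelial cells made up 82 of the 2931 endothelial cells sequenced from distal mouse lung. They were the cells to which the authors gave the subtype label Lymphatic EC, and the other 2849 cells, with 9 blood endothelial labels, are called blood endothelial cells here. The cells came from 10 labelled mice, a female and a male in each of 5 groups: E18.5 embryos, normal air at P1, at P7 and at P21, and hyperoxia at P7. The labels do not give the strain, the oxygen level or its duration, or whether each name is a single animal or several pooled, so the spread between mice may include only part of the animal-to-animal spread. Cells were sorted by FACS, and 81 of the 82 lymphatic cells came through the gate for CD31, the product of Pecam1. The remaining cell, from the P21 male, came through the gate labelled mesench.

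The lymphatic cells were few and unevenly spread. The E18.5 female gave 2 cells and the E18.5 male 10. The P1 female gave 26 and the P1 male 13. At P7 in normal air the female gave 1 cell and the male 5, and at P21 the female gave 3 and the male 2. Under hyperoxia the P7 female gave 14 and the male 6. A lymphatic cell had a median of 732645.5 reads (61354 to 2913424) and 4806 detected genes (760 to 10704), against 619108 reads and 3298 genes in a blood endothelial cell. After each cell was thinned to 50000 reads, the medians were 3743.5 and 2547.5 genes, with 0 lymphatic and 11 blood cells left out as too shallow.

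Lymphatic vessels drain fluid and immune cells from tissue. Their endothelium is known to arise largely from venous endothelium, in which the transcription factor Nr2f2 (COUP-TFII) and the SOX factor Sox18 switch on Prox1, the homeobox factor that sets and holds lymphatic identity. Growth of these vessels is driven by Vegfc acting on the receptor VEGFR3, the product of Flt4, with Nrp2 as a co-receptor. In the lung the lymphatics clear liquid around birth, and their valves and chemokines direct lymph and dendritic cells towards the lymph nodes.

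The promoters of Prox1, Mmrn1 and Reln are shown because all 3 genes were read in nearly every lymphatic cell and in few blood endothelial cells. Each is the 250 bases before a start site given by RefSeq promoters on GRCm38.p6, written from 5′ to 3′ on the gene's strand. Capitals mark matches, on either strand, to 4 short motifs: TATAAA, the core of many start sites, the GC box GGGCGG, the ETS core GGAAGT and the SOX core AACAAT.
Prox1, chr1:190170828-190171077, minus strand: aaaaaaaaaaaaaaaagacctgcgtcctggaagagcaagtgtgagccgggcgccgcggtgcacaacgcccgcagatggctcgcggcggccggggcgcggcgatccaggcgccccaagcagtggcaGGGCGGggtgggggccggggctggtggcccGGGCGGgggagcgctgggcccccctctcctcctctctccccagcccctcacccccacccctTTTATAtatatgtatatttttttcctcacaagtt
Mmrn1, chr6:60944067-60944316, plus strand: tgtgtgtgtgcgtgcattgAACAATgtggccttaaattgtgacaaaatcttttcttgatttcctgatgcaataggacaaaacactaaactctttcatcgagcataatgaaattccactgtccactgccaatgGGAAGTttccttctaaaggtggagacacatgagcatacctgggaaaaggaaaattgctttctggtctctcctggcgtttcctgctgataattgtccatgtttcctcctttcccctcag
Reln, chr5:22344706-22344955, minus strand: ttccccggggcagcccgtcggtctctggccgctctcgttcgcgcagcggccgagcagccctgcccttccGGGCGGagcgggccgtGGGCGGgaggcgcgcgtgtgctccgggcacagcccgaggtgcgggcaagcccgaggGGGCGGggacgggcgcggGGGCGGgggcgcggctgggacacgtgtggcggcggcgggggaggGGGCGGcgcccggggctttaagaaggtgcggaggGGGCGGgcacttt

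RefSeq holds 2 Prox1 promoters, and the one shown is the first listed. It held 2 GC boxes and a reversed TATAAA that begins 34 bases before the start, and the second (chr1:190169516-190169765) held 1 GC box and no TATAAA. The Mmrn1 window held 1 SOX core and 1 ETS core and no GC box, and the Reln window held 6 GC boxes. The Mmrn1 window lies inside the GENCODE span of its gene (chr6:60924976-60989378, plus strand), downstream of that span's first base. It may therefore not be the promoter used in these cells, which was not tested. Over the whole RefSeq window, which adds the 50 bases after the start, G and C made up 64.3% of the first Prox1, 44.3% of the Mmrn1 and 80.7% of the Reln promoter. Of all 32851 promoters of that length, TATAAA was in 13.6%, GGGCGG in 35.7%, GGAAGT in 23.8% and AACAAT in 10.7%. Among the first promoters of 312 genes that passed the threshold as higher in lymphatic cells, the shares were 8.97%, 66.0%, 17.3% and 5.77%, beside 7.26%, 62.8%, 27.6% and 6.03% over 11121 genes tested. A match is a run of letters and not a shown binding site.

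The 4 markers given for the label were read together in the labelled cells. Reads of Prox1, Flt4, Lyve1 and Mmrn1 were all present in 68 of 82 lymphatic cells and 3 of the 4 in the other 14, so that no cell had fewer than 3. All 4 were present in 5 of 2849 blood endothelial cells. At 50000 reads per cell the counts were 64 of 82 and 1 of 2838. Prox1 and Mmrn1 both exceeded 20 CPM (reads of the gene per 1000000 reads) in 78 of 82 lymphatic cells and in 1 of 2849 blood endothelial cells. The label was made from the expression of these same cells, so every contrast of lymphatic with blood or venous cells below is a description. In these contrasts the threshold (edgeR adjusted p under 0.05) serves only to sort genes as higher or lower and is no evidence for the label or for any difference.

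Prox1 (chr1:190118035-190170714 on GRCm38) was read at 353 CPM in the summed lymphatic cells of the E18.5 female and 191.1 CPM in the E18.5 male. It was at 735.2 and 524.8 CPM in the P1 female and male, 427.2 CPM in the P7 male, 458.8 and 1913 CPM in the P21 female and male, and 680.4 and 674.2 CPM in the female and male under hyperoxia. The single lymphatic cell of the P7 female had no Prox1 read. Blood endothelial cells of the 10 mice were at 0 to 8.49 CPM, so that every mouse with Prox1 reads in its lymphatic cells stood above every blood sum. The P7 female's cell carried Mmrn1 at 2127 CPM and Flt4 at 599.4 CPM, and also the platelet genes Ppbp at 940.4 CPM and Pf4 at 196 CPM and the blood endothelial gene Vwf at 729.9 CPM.

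Mmrn1 (chr6:60924976-60989378), which encodes the secreted protein multimerin, was the most even of the markers, at 1027 to 4655 CPM in the lymphatic cells of the 10 mice against 0 to 19.8 CPM in their blood endothelial cells. Flt4 (chr11:49609263-49652739) stood at 599.4 to 4861 CPM in the lymphatic cells and at 90.2 to 302.8 CPM in the blood cells. Flt4 reads were found in 100% of lymphatic and 64.6% of blood endothelial cells, so its level and not its presence set the classes apart. Lyve1 (chr7:110850607-110863239), a hyaluronan receptor, did not separate them. Its blood level reached 3413 CPM in the female and 2891 CPM in the male under hyperoxia, where the lymphatic cells were at 3403 and 1986 CPM. Lyve1 reads were in 85.4% of lymphatic and 81.1% of blood endothelial cells.

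**Figure D1:**
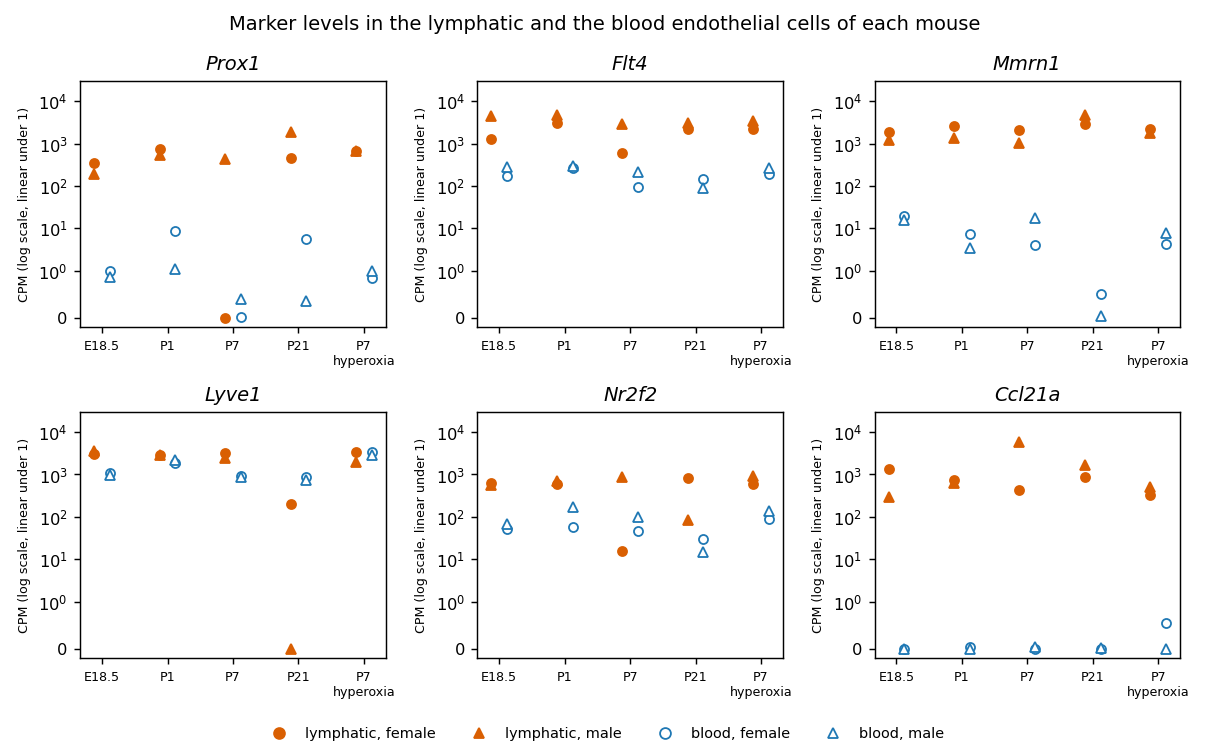
Level of 6 genes (CPM, log axis that is linear under 1) in the summed lymphatic (filled) and blood endothelial (open) cells of each of 10 mice, by group; circles are females and triangles males. Prox1, Mmrn1 and Ccl21a are far apart between the classes except for the P7 female's single cell without Prox1 reads, whereas the Lyve1 points of the classes overlap.

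Among the single labels the order differed from gene to gene. In mice with at least 5 cells of a label, the median of Prox1 was 599.5 CPM in lymphatic cells (191.1 to 735.2, 6 mice) and 3.91 CPM in venous cells (0 to 40.2, 9 mice), and at most 0.221 CPM in the other 8 labels. Nr2f2, the upstream venous factor, was at a median of 638.7 CPM in lymphatic cells (564.8 to 918.6) and 431.8 CPM in venous cells (321.1 to 752.7), ranges that overlap, and at 280.8 CPM in proliferative venous cells. The next label, Early Car4- capillaries, was at 58.3 CPM. For Flt4 the lymphatic median of 3300 CPM (2220 to 4861) was followed by Car4+ capillaries at 475.3 CPM (135.6 to 610.5), and venous cells were at 44.3 CPM. For Lyve1 the highest median, 2941 CPM, was that of Arterial EC I (45.9 to 4969), beside 2896 CPM in lymphatic cells (1986 to 3538), 2308 CPM in Early Car4- capillaries and 2222 CPM in venous cells, and these neighbours overlap throughout.

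**Figure D2:**
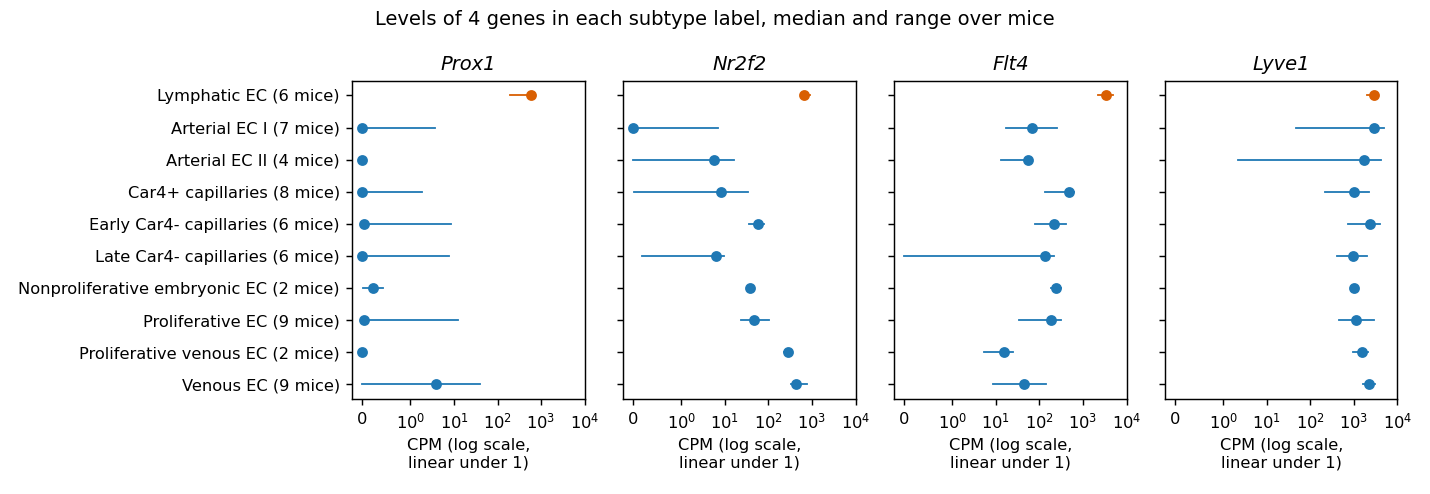
Median (point) and range over mice (line) of Prox1, Nr2f2, Flt4 and Lyve1 in CPM (log axis, linear under 1) for each subtype label, over mice with at least 5 cells of it. Lymphatic cells (top row) stand alone for Prox1 and Flt4, share the Nr2f2 range with venous cells, and lie among arterial and venous labels for Lyve1.

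Over 11318 genes at 10 CPM or more in at least 1 label, the lymphatic profile of log2(CPM + 1) was closest to Nonproliferative embryonic EC (Pearson r 0.759, Spearman rho 0.787), then to Venous EC (0.744 and 0.777). It was farthest from Proliferative venous EC (0.634 and 0.668), a label of only 10 cells. These correlations are across genes, which are not independent, and the labels share mice and libraries. By Pearson r over the 10 labels, the genes most like Prox1 included Cldn11 (0.969) and Ank (0.968), and each of the 10 closest had an r of at least 0.960.

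To compare classes within mice, reads were summed per mouse and class in the 6 mice with at least 5 lymphatic cells: the E18.5 male, both P1 mice, the P7 male and both hyperoxia mice. Of 14906 genes tested, 1366 (9.16%) passed the threshold of an adjusted p under 0.05 (edgeR quasi-likelihood test with mouse as a term), 423 higher (2.84%) and 943 lower (6.33%) in lymphatic cells. The median of all genes was -0.65 on the log2 scale, lymphatic over blood. The folds below are log2 folds with their standard error (SE), and levels are the mean CPM with the SD over those 6 mice. Where the level of a class was low and uneven between mice, as for Nrp1, Vegfc, Flt1 and Pparg, the fitted fold exceeded the ratio of the mean levels. Such folds are not to be read as exact sizes. Leaving out 1 mouse moved the count of 1366 to between 698 (without the P1 female) and 1136, with 723 without the P1 male, 845 without the P7 male and 821 without the hyperoxia female.

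Of 11 lymphatic transcription factors tested, 6 were higher past the threshold, 0 lower and 5 did not pass. Prox1 was at 539 ± 205 CPM against 2.12 ± 3.13 CPM in blood endothelial cells, a log2 fold of 8.55 ± 0.57. Tbx1 (chr16:18580979-18590671), a T-box factor known for lymphatic development, was at 105 ± 38.9 CPM against 0.0309 ± 0.0564 CPM (12.45 ± 1.01). Maf stood at 452 ± 94.1 CPM against 6.04 ± 6.09 CPM (6.53 ± 0.60). Nr2f2 was at 702 ± 155 CPM against 103 ± 43.2 CPM (2.67 ± 0.24), and the valve factors Foxc2 (6.17 ± 0.97) and Nfatc1 (1.78 ± 0.32) were higher too. Each of these 6 genes, picked here as past the threshold, was higher in 6 of 6 mice. Sox18, which switches on Prox1 in the embryo, was at 436 ± 155 against 333 ± 94.6 CPM and did not pass (0.19 ± 0.17). Gata2, a valve factor, was lower in 6 of 6 mice, at 51.2 ± 37.4 against 246 ± 42.7 CPM, and also did not pass (-2.90 ± 0.83).

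Of 12 lymphatic surface and matrix proteins, 9 were higher, 0 lower and 3 (Lyve1, Cd9 and Timp3) did not pass. Their median log2 fold was 6.54. Reln, the secreted protein reelin, stood at 678 ± 225 CPM against 0.162 ± 0.205 CPM in blood cells (12.47 ± 0.81), and in single mice it ran from 347.9 CPM in the P7 male to 1020 CPM in the hyperoxia male. The surface protein Thy1 was at 246 ± 156 against 0.0986 ± 0.182 CPM (12.32 ± 1.19). The ion transport regulator Fxyd6 was at 943 ± 388 against 0.852 ± 0.971 CPM (11.35 ± 1.49). Pdpn (podoplanin), the classical lymphatic surface marker, was low, at 14.9 ± 8.69 CPM, but read in 85.4% of lymphatic and 0.948% of blood cells (8.09 ± 1.29). The scavenger receptor Stab1 (2.78 ± 0.28), the tetraspanin Cd63 (3.47 ± 0.22), Fgl2 (5.58 ± 0.45) and the ferroxidase Cp (7.50 ± 1.12) completed the group with Mmrn1 (7.57 ± 0.52). Lyve1 was at 2865 ± 578 against 2048 ± 1014 CPM (0.45 ± 0.31), higher in 4 of 6 mice.

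Of 11 genes of the VEGF-C pathway tested, 3 were higher and 3 lower. Flt4 was at 3505 ± 967 CPM against 256 ± 40.7 CPM (3.57 ± 0.14), the co-receptor Nrp2 at 1341 ± 374 against 34.5 ± 23 CPM (5.27 ± 0.23), and Itga9, an integrin subunit that binds fibronectin, at 237 ± 124 against 7.25 ± 4.85 CPM (4.95 ± 0.60). The co-receptor of the blood endothelium, Nrp1, was at 13.9 ± 21.3 against 621 ± 184 CPM (-8.97 ± 1.61). The ligand Vegfc was at 3.90 ± 7.48 CPM in the lymphatic cells and 107 ± 28.6 CPM in the blood endothelial cells (-8.23 ± 1.66). Ccbe1, which helps to process that ligand, gave 1 lymphatic read and 1253 blood reads, a pooled ratio of 67.6 (counting interval 12.1 to 2671). Kdr, the receptor VEGFR2, was at 771 ± 127 and 775 ± 218 CPM and did not pass (-0.14 ± 0.18).

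Lymphatic valves are leaflets of endothelium that keep lymph from flowing back. Of 14 valve genes, 8 were higher and 1, the semaphorin receptor Plxna1, lower. The gap junction gene Gja1 (811.5 ± 164 against 19.3 ± 11.5 CPM, 5.42 ± 0.47) was among them, with the tight junction gene Cldn11 (11.31 ± 1.22), Fn1 (3.10 ± 0.58) and the planar polarity gene Celsr1 (4.22 ± 0.89). Foxc2 and Cldn11 were read together in 13 of 82 lymphatic cells, 6 of them from the hyperoxia female, 3 from the P1 female, 2 from the P7 male and 1 each from the E18.5 and P1 males. Neither was read in 45 cells. In the 13 cells Lyve1 was read in 12, at a median of 3790 CPM, and in the 45 cells in 35, at a median of 2311 CPM. The 13 cells also had more detected genes, with a median of 6547 against 4282, and the part of depth in these values was not tested.

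Of 13 genes that guide leukocytes, 4 were higher and 5 lower. Ccl21a (chr4:42772860-42773993), the chemokine that draws Ccr7-bearing dendritic cells into lymphatics, was read in 97.6% of lymphatic and 0.175% of blood cells, with a log2 fold of 14.79 ± 1.41. Its mean of 1377 ± 2164 CPM rests on the P7 male, at 5780 CPM, with the other 5 mice between 290.7 and 723.7 CPM. In that mouse 1 cell reached 11524 CPM. Il7, a survival factor for lymphocytes, was at 72.5 ± 35.5 against 1.98 ± 1.43 CPM (5.19 ± 0.71), and the guidance cue Sema3a at 52.5 ± 34.6 against 2.09 ± 1.91 CPM (4.33 ± 0.77). The chemokine Cxcl12 (-7.33 ± 1.31) and its scavenger Ackr3 (-4.43 ± 0.75) were lower. Ackr4, a scavenger of Ccl21, gave 1 lymphatic read against 9552 blood reads, a pooled ratio of 515 (92.4 to 20346). The sphingosine 1-phosphate receptor S1pr1 was at 369 ± 164 against 649 ± 166 CPM (-1.06 ± 0.18).

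Ccl21a belongs to a family of near-identical mouse copies, so reads may be split or shared among them. In the GENCODE M21 transcripts, Ccl21a and Ccl21b differ at 2 of 402 coding bases (99.5% identical). Counted from 1 at the first base of the start codon, with the Ccl21a base first, the differences are T84A and C194T. The stretches around them, with the differing base in capitals, show how little a short read can tell the copies apart.
Ccl21a, coding bases 64 to 104: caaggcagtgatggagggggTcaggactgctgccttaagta
Ccl21b, coding bases 64 to 104: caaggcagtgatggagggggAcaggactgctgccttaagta
Ccl21a, coding bases 174 to 214: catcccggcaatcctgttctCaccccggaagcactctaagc
Ccl21b, coding bases 174 to 214: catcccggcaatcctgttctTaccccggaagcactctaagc

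Ccl21b had no row in the count table analysed here. Ccl21c had 161 lymphatic reads and 1 blood read in the 6 mice, with a level of 3.98 ± 3.50 CPM (10.22 ± 1.51). How many of the Ccl21a reads came from other copies was not tested.

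Of 13 semaphorin and guidance genes, 2 were higher and 3 lower, beside 2.84% higher and 6.33% lower over all 14906 genes. Sema3d was at 157 ± 75.9 against 0.254 ± 0.269 CPM (9.51 ± 0.56) and the netrin receptor Unc5b at 324 ± 148 against 85.4 ± 39.8 CPM (1.81 ± 0.25). The median of this list was -0.14 in the fit and 0.15 from pooled reads, so the 2 summaries differ in sign. Of 10 adrenomedullin and Tie genes, 1 was higher and 5 lower. Angpt2, a Tie2 ligand needed for lymphatic growth, was at 142 ± 84.6 against 24.4 ± 13.2 CPM (2.37 ± 0.49). The adrenomedullin receptor Calcrl was at 221 ± 74.3 against 1529 ± 444 CPM (-2.99 ± 0.18), and its partner Ramp2 at 1014 ± 397 against 2292 ± 1065 CPM (-1.33 ± 0.15). Ptprb (-2.59 ± 0.30), the phosphatase that restrains Tie2, and Tek (-1.57 ± 0.27), the gene of Tie2, were lower as well. Of 12 lipid handling genes, 1 was higher and 4 lower. The higher one was Pparg, a nuclear receptor for lipids, at 38.9 ± 20.6 against 1.02 ± 1.48 CPM (7.73 ± 1.82). The fatty acid transporter Cd36 was at 55.5 ± 45.7 against 595 ± 262 CPM (-4.25 ± 0.73), with the capillary lipase anchor Gpihbp1 (-2.04 ± 0.19), Cav1 (-1.55 ± 0.24) and Scarb1 (-2.69 ± 0.25).

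Most genes of the blood endothelium were lower in the lymphatic cells. Of 20 tested, 0 were higher and 18 lower, with a median log2 fold of -6.80 in the fit and -4.46 from pooled reads. Vwf (von Willebrand factor) was at 2.10 ± 3.98 against 370 ± 129 CPM (-9.16 ± 1.17), Flt1 (VEGFR1) at 13.1 ± 25.3 against 375 ± 78.2 CPM (-7.50 ± 1.37), and the hypoxia factor Epas1 at 25 ± 27.1 against 1057 ± 438 CPM (-6.14 ± 0.62). Cd34 (-4.63 ± 0.47), Emcn (-2.82 ± 0.42) and Plvap (-1.83 ± 0.22) were lower by less, and Notch1 and Ednrb did not pass. Of 12 pan-endothelial genes, 0 were higher and 7 lower, with a median log2 fold of -0.83 beside -0.65 over all genes. Pecam1, the gene of the sort marker, was at 450 ± 271 against 1154 ± 197 CPM (-1.81 ± 0.32), and Cdh5 (VE-cadherin) at 347 ± 115 against 765 ± 188 CPM (-1.39 ± 0.23). The junction gene Esam was at 74.5 ± 79.1 against 1318 ± 325 CPM (-5.53 ± 1.11). Cldn5, Erg, Fli1, Tie1 and Tal1 did not pass. Of 14 p53 targets, 0 were higher and 3 lower, led in level by Cdkn1a at 402 ± 431 against 1390 ± 1244 CPM (-2.27 ± 0.22). Of 12 hypoxia response genes, Ndrg1 was higher (265 ± 91.7 against 20.5 ± 10.1 CPM, 3.57 ± 0.31) and Ankrd37 lower (-6.53 ± 1.19). Of 12 dissociation and heat shock genes, 0 were higher and 2, Ier2 and Ier3, lower. Over all 14906 genes 2.84% passed as higher and 6.33% as lower. The few calls in the p53, hypoxia and dissociation lists are not read as traits of those lists. The sort selected on CD31, and how well it keeps lymphatic cells with little of that protein was not tested.

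**Figure D3:**
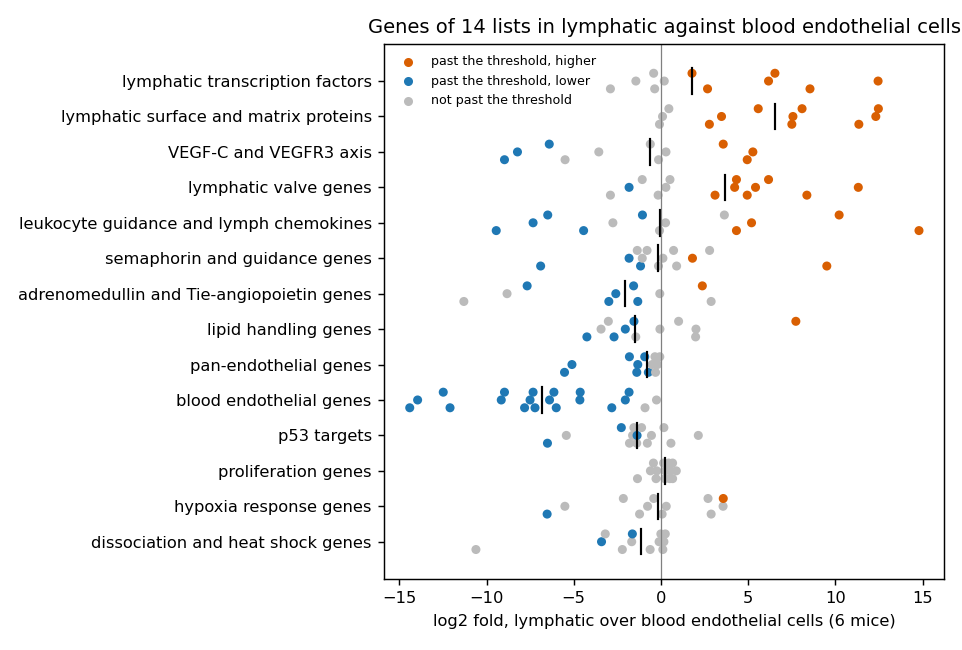
Log2 fold of lymphatic over blood endothelial cells (x axis, 6 mice) for each tested gene of 14 lists (rows); orange points passed the threshold as higher, blue as lower, grey did not pass, and the black bar is the list's median. Surface, valve and transcription factor genes lie mostly to the right, and blood endothelial genes to the left with 18 of 20 past the threshold.

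The named genes with the greatest folds were also described one by one. On the higher side stood Ccl21a, then Ptx3 (chr3:66219910-66225805), which encodes the secreted pattern recognition protein pentraxin 3, at 675 ± 433 CPM against 0.144 ± 0.332 CPM in blood (14.33 ± 1.33). As for Ccl21a, the P7 male was highest for Ptx3, at 1489 CPM, and the next mouse was at 726.2 CPM. The homeobox gene Hoxd9 gave 3333 lymphatic reads and 3 blood reads in the 6 mice, a pooled ratio of 20604 (7044 to 99960). Lcn2, an iron-binding lipocalin, was at 204 ± 148 against 0.0129 ± 0.0125 CPM, and the transcription factor Osr1 at 107 ± 77.0 against 0.126 ± 0.301 CPM. Reln, Tbx1, Lrrn4cl, Apba2, Thy1, Slc45a3 and Serinc2 completed the 12.

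On the lower side, 6 genes had 0 reads in the lymphatic cells of the 6 mice, so their folds are bounds from a floor of 3 reads in the pooled class. Tspan8, a tetraspanin, was at 234 ± 132 CPM in blood cells, at least 4088-fold higher there. The other bounds were 3296-fold for Wfdc1, 2934-fold for Klk8, 2856-fold for Lims2, 1984-fold for Serpinb1a and 1223-fold for Dnah8. Ly6a (Sca-1) gave 4 lymphatic reads against a blood level of 1360 ± 928 CPM. The apelin receptor gene Aplnr gave 1 lymphatic read, a ratio of 15783 (2833 to 623409). Adrb1 gave 1 lymphatic read, a ratio of 3604 (646.9 to 142359), and Ankrd33b 2 reads, a ratio of 2505 (693.3 to 20682). Ly6c1 and Car4, the capillary carbonic anhydrase gene, were at 4.39 ± 10.8 and 0.281 ± 0.688 CPM, each from 1 mouse alone.

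Venous cells were compared separately because lymphatic endothelium is known to come from veins. In the same 6 mice, 722 of 13111 genes (5.51%) passed the threshold, 313 higher (2.39%) and 409 lower (3.12%) in lymphatic than in venous cells, and leaving out 1 mouse gave 385 to 722. Nr2f2 did not pass, at 702 ± 155 against 544.5 ± 141 CPM (0.20 ± 0.20), and neither did Lyve1, at 2865 ± 578 against 2045 ± 314 CPM (0.30 ± 0.15). Prox1 was at 539 ± 205 against 13.3 ± 15 CPM (5.89 ± 0.72). Prox1 reads were found in 9.85% of venous cells, and in the P1 female in 6 of 17. Flt4 was further from the venous cells (5.41 ± 0.31) than from all blood cells together (3.57 ± 0.14), and Gja1 likewise (8.44 ± 0.91). Ccl21a had 0 reads in the venous cells of these mice, so it was at least 34586-fold higher in the lymphatic cells. Cd9 (-0.93 ± 0.21) and the vein-known receptor Ephb4 (-1.14 ± 0.29) were lower in lymphatic cells here. The largest lower folds were those of Tspan8 (at least 9424-fold), Plac8 (at least 7873-fold), Klk8, Car8 and Lims2.

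Of the 14 proliferation genes, 5 were higher in lymphatic than in venous cells and 0 lower, with Top2a at 269 ± 77.7 against 18.9 ± 18.2 CPM (4.39 ± 0.93). Against all blood endothelial cells, 0 of 14 passed in either direction, with a median log2 fold of 0.24 in the fit and -0.00055 from pooled reads. With the proliferative labels left out of the blood class, the folds of Cdk1 and Aurkb turned from -0.24 and -0.43 to 1.82 and 4.20. The blood class includes the cells labelled Proliferative EC and Proliferative venous EC, whereas cycling lymphatic cells have no label of their own. The venous class leaves out the cells with those 2 labels. The labels alone can therefore set the direction of the venous contrast, and of any contrast without the proliferative labels. At 50000 reads per cell, at least 7 of the 14 genes were read in 18 of 82 lymphatic cells (22%, exact Clopper-Pearson 95% interval 13.6 to 32.5, which covers counting error only) and in 347 of 2838 blood endothelial cells (12.2%). Blood cells without the proliferative labels had 9 of 2438 (0.369%). The minimum of 7 genes was chosen after the values were seen, and minimums of 5 and 9 gave 26.8% and 18.3% of lymphatic cells against 14.5% and 10.3% of blood cells.

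The cycling cells were not spread evenly over the mice. In the lymphatic cells they were 0 of 2 and 0 of 10 in the E18.5 female and male, 4 of 26 and 8 of 13 in the P1 female and male, and 2 of 5 in the P7 male. Under hyperoxia they were 3 of 14 in the female and 1 of 6 in the male, and the P7 female and both P21 mice had 0. In blood endothelial cells the share was 34.7% and 27.0% at E18.5 and 3.82% and 4.11% at P1. The count of 0 of 10 in the E18.5 male allows a share of up to 30.8% (exact interval) and depends on the minimum. With at least 5 genes the E18.5 male had 2 of 10 lymphatic cells (20%), the P1 female 5 of 26 (19.2%) and the P1 male 9 of 13 (69.2%), so the P1 female no longer stood above the E18.5 male. With at least 9 genes the counts were 0 of 10, 2 of 26 and 7 of 13. The P1 male's lymphatic cells were also the deepest sequenced of the P1 mice, with a median of 1202661 reads and 7617 genes against 618464.5 reads and 4699 genes in the female, and what depth adds after thinning was not tested.

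Summed markers of fibroblasts, epithelium, leukocytes and platelets were low in the lymphatic cells of most mice, and those of mesothelium were not. Of 10 fibroblast and mural markers the summed level was 0 to 49.6 CPM in 9 mice and 3289 CPM in the P7 male, where 1 cell with Col1a1 at 3143 CPM carried it. The blood sums were 14.3 to 116 CPM. The summed epithelial markers were 0 to 85.9 CPM against 43.2 to 214 CPM in blood, and the leukocyte markers 0 to 181 CPM against 5.46 to 56.5 CPM. The platelet and red cell markers were 0 to 89.4 CPM in 9 mice and 1136 CPM in the P7 female's cell. Against blood cells, 0 of 10 fibroblast, 0 of 7 epithelial, 0 of 6 leukocyte and 0 of 8 platelet genes tested passed as higher, and 1 of 3 mesothelial genes, Gpm6a, did. The 6 summed mesothelial markers were at 0 to 554 CPM (median 120 CPM) in the lymphatic cells against 0.564 to 2.77 CPM (median 1.58 CPM) in blood. Gpm6a made up nearly all of this, with Upk3b and Lrrn4 at 0 in the lymphatic cells of all 10 mice and Msln at most 0.445 CPM. The part of these cells in the P7 values was not tested.

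Age was compared over summed lymphatic reads in 1 model of all 10 mice, with 2 mice per group. None of 11220 genes passed between P1 and E18.5 (0%, 478 or 4.26% at an unadjusted p under 0.05), and none between P7 and P1 (0%, 74 or 0.66% unadjusted). DESeq2 gave 120 and 33 genes in these contrasts. In simulated data of the P1 against E18.5 design, 0% of genes changed by 2 or by 4 on the log2 scale were recovered, so the design has little power. Between P21 and P7, 2 of 11220 genes passed, both lower at P21 (0.0178%; 1486 or 13.2% unadjusted), and DESeq2 gave 1657. Without the P21 female the count was 725, and without the P21 male 9. The 2 P21 cells of the male had 760 and 1167 detected genes, the former the fewest of all lymphatic cells.

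H19, an imprinted noncoding RNA of fetal growth (chr7:142575529-142578143), was the clearest change with age. Its lymphatic level was 3324 and 4498 CPM in the E18.5 female and male, 1639 and 2903 CPM at P1, 550.1 and 593.7 CPM at P7, and 0 in both mice at P21. It was read in 12 of 12 lymphatic cells at E18.5, 36 of 39 at P1, 5 of 6 at P7 and 0 of 5 at P21. H19 fell from P7 to P21 past the threshold (edgeR adjusted p = 1.1e-06), at least 615-fold against a floor of 3 reads in the pooled P21 cells, and the call held in all 17 alternatives. The 3 P21 cells of the female, with 3143 to 4592 detected genes, were at 0 as were the sparser cells of the male. Blood endothelial cells of the same mice went from 44.7 and 36.9 CPM at P7 to 4.90 and 0.193 CPM at P21. The order was the same within a sequencing run: the run of the E18.5, P1 and P21 females gave 3324, 1639 and 0 CPM, and the run of the E18.5 and P7 males and 1 cell of the P21 male gave 4498, 593.7 and 0 CPM. H19 was also higher in lymphatic than in blood cells of the same mice in 6 of 6, at 1978 ± 1497 against 74.5 ± 64.7 CPM (4.72 ± 0.28). The other gene called at P21, CT010467.1, is annotated as ribosomal RNA, with a log2 fold of -1.73 ± 0.27. It took 16.2% of the reads of the P7 female's cell and 6.98% of those of the P7 male's, against 6.90% and 1.05% at P21, and its call was lost in 5 of 17 alternatives, among them the fit without the P7 female (-0.77).

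Lyve1 and most proliferation genes had negative folds at P21 that did not pass the threshold. Lyve1 was at 3230 and 2474 CPM in the lymphatic cells at P7 and at 200 and 0 CPM at P21, with a read in 1 of 5 P21 cells (log2 fold -4.87 ± 1.22, edgeR adjusted p = 0.153). Blood endothelial cells held 900.5 and 862.3 CPM of Lyve1 at P7 and 857.6 and 746.8 CPM at P21. At P21 the lymphatic sums of Lyve1 therefore lay below the blood sums of the same mice, the reverse of P7. Of the 14 proliferation genes, 13 had a negative fold from P7 to P21 and 0 passed. Over all 11220 genes the median was -2.58, and 7661 had a negative fold. Prox1, Flt4, Mmrn1 and Reln each had a positive fold from P7 to P21 within 2 SE of 0, and at P21 Mmrn1 was at 2909 and 4655 CPM. The heat shock gene Hspa1a was read in the lymphatic cells only at P21, at 296.6 CPM in the female and 2749 CPM in the male. In the blood endothelial cells it was at 554 and 633 CPM at P21 and at most 5.85 CPM in the other 8 mice. Of the 12 dissociation and heat shock genes, 10 had a positive and 2 a negative lymphatic fold from P7 to P21, with 0 past the threshold. The median of that list was 1.53 beside -2.58 over all genes, and its part in the P21 values was not tested.

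**Figure D4:**
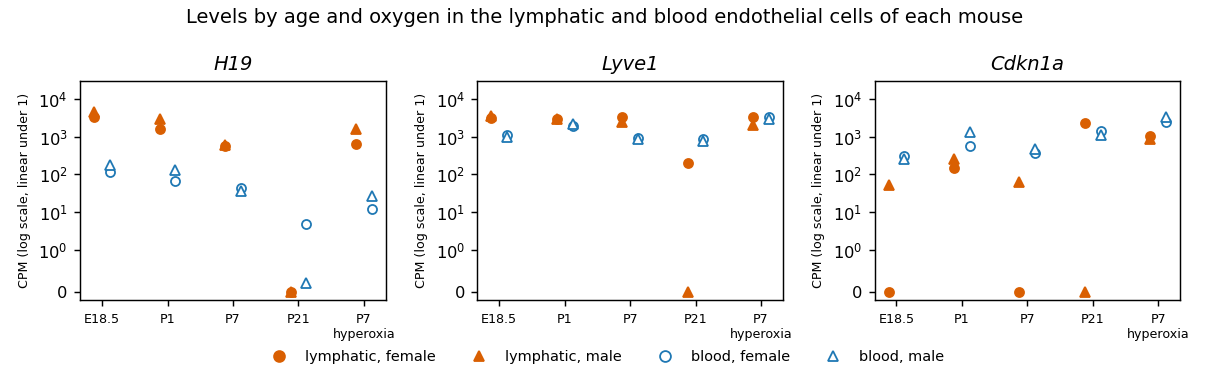
H19, Lyve1 and Cdkn1a (CPM, log axis that is linear under 1) in the summed lymphatic (filled) and blood endothelial (open) cells of each mouse, by group; circles are females and triangles males. Lymphatic H19 is at 0 in both P21 mice, lymphatic Lyve1 lies below the blood points at P21, and Cdkn1a is at 1025 and 867.7 CPM in the lymphatic cells of both hyperoxia mice. The lymphatic Cdkn1a point of the P21 female in normal air lies above both.

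The contrast of hyperoxia with normal air rests, on its normal air side, on the 1 and 5 lymphatic cells of the P7 mice. Of 11220 genes, 1 passed (0.00891%; 128 or 1.14% unadjusted), the ribosomal RNA CT010467.1, lower under hyperoxia (-1.31 ± 0.26, edgeR adjusted p = 0.00889), and this call was lost in 9 of 18 alternatives. Without the P7 female, whose single cell was highest for it, its fold was -0.42. DESeq2 gave 47 genes. Cdkn1a, the p53 target that encodes the cell cycle inhibitor p21, was at 0 and 61.4 CPM in the lymphatic cells of the P7 female and male and at 1025 and 867.7 CPM under hyperoxia. The gene did not pass (4.90 ± 2.07, edgeR adjusted p = 1). In the hyperoxia female 1 cell, at 14386.5 CPM, carried much of the sum, and 9 of 14 cells had a read. The males shared a sequencing run, and within it Cdkn1a was at 867.7 against 61.4 CPM. In blood endothelial cells Cdkn1a went from 366.7 and 457.2 CPM to 2404 and 3351 CPM. A high lymphatic level of Cdkn1a was not particular to hyperoxia. In normal air the 3 lymphatic cells of the P21 female were at 2025, 3011 and 2122 CPM, and the 2 of the P21 male at 0. Single P1 cells reached up to 947.7 CPM. Over all 11220 genes tested, 7370 had a positive and 3757 a negative fold. Of 12 p53 targets tested, 11 had a positive fold and 1 a negative one, with 0 past the threshold. Their median was 2.12 beside 0.72 over all genes. The dissociation and heat shock genes moved the other way in the same contrast. Of 12 tested, 1 had a positive and 9 a negative fold, with 0 past the threshold and a median of -1.63. Their summed lymphatic level was 7640 and 17688 CPM in the P7 female and male and 4794 and 2387 CPM under hyperoxia. Within the run of the males Fos was at 510.2 CPM under hyperoxia against 7706 CPM in normal air, and Dusp1 at 760.2 against 4469 CPM. Their part in the contrast was not tested.

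Whether lymphatic and blood endothelial cells differed in their response was tested with the interaction of class and hyperoxia. None of 15545 genes passed (0%, 81 or 0.521% unadjusted; DESeq2 54). For Cdkn1a the interaction was 3.53 ± 2.19 and for Lyve1 -2.58 ± 1.48 on the log2 scale (edgeR adjusted p = 1 for each). Lyve1 in blood endothelial cells stood at 900.5 and 862.3 CPM in normal air and at 3413 and 2891 CPM under hyperoxia. In lymphatic cells the values were 3230 and 2474 CPM and 3403 and 1986 CPM, so the blood sums lay below both lymphatic sums in normal air and not under hyperoxia. Against P1, the group with the most lymphatic cells, 0 of 11220 genes passed (0%, 150 or 1.34% unadjusted; DESeq2 23), a contrast in which age and treatment cannot be told apart. H19 was at 627.2 and 1606 CPM under hyperoxia, between the P7 and P1 levels in the male and near the P7 level in the female.

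The share of lymphatic cells was taken among the CD31-gate cells of each mouse. It was 2 of 296 (0.676%) and 10 of 292 (3.42%) in the E18.5 female and male, and 26 of 315 (8.25%) and 13 of 232 (5.60%) at P1. At P7 it was 1 of 320 (0.313%) and 5 of 200 (2.5%), and at P21 3 of 282 (1.06%) and 1 of 238 (0.420%). Under hyperoxia at P7 it was 14 of 265 (5.28%) and 6 of 254 (2.36%). The P1 mice were the only ones in normal air above 5%, with a mean of 6.93% ± 1.87 (SD, n = 2) beside 2.05% ± 1.94 at E18.5, 1.41% ± 1.55 at P7 and 0.742% ± 0.455 at P21. Over the 4 ages in normal air the share did not pass a test that compares its variance between ages over all assignments of mice (exact permutation, p = 0.105 over 2520 assignments, adjusted over 10 labels p = 0.163). Many assignments tie in this test, so its smallest exact permutation p is 0.00952. Proliferative EC had that p, and adjustment over the 10 labels raised it to 0.0952. A label alone at the smallest p could therefore not pass, and the result for lymphatic cells says little about age. Hyperoxia gave 3.82% ± 2.07, and the ranges of the P7 groups overlap; 2 mice against 2 cannot go below p = 0.333 in an exact test. A share of sorted cells moves with every other cell type in the gate.

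**Figure D5:**
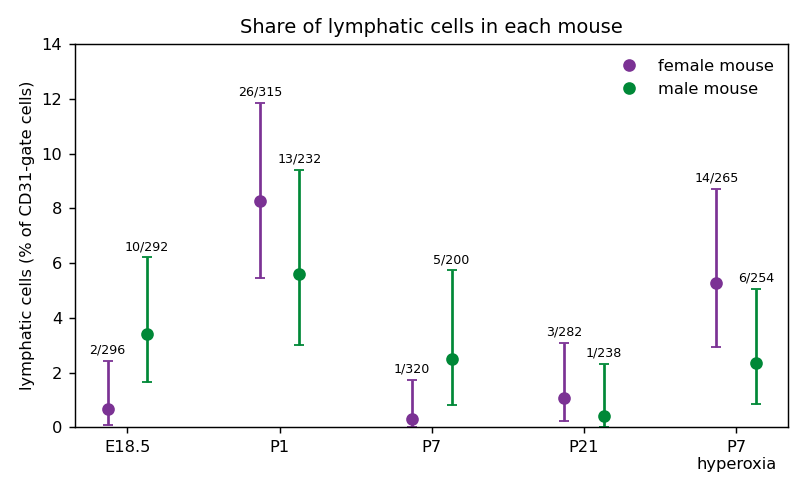
Lymphatic cells as a percentage of CD31-gate cells (y axis) in each mouse, by group, with exact Clopper-Pearson 95% intervals for counting error; purple points are females, green points males, and the numbers are lymphatic cells over gate cells. The P1 female (8.25%) and male (5.60%) are the highest in normal air, and the hyperoxia female is at 5.28%.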

How the data were processed

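Single cells were sorted from distal lung and made into plate-based Tn5 libraries, 1 per cell, per the labels' protocols. The authors deposited whole-number read counts per gene and cell, without molecular identifiers, for 18072 gene symbols and 2931 cells, and a table of cells with their subtype labels. Per the submitters' processing notes, STAR 2.5.2b and HTSeq 0.10 were used; they name the human build GRCh38, although the symbols are those of mouse genes. Positions of 235 of the 237 genes in the lists and rules came from GENCODE M21 (GRCm38). No rows other than genes entered the totals, doublets were not called, and no filter on cells was applied beyond the authors' own.

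Reads were summed per mouse and class and tested with edgeR 4.0.16 (quasi-likelihood, TMM, filterByExpr, Benjamini-Hochberg, threshold 0.05) in R 4.3.3; the mouse was a term where both classes entered, and ages and hyperoxia were contrasts of 1 model over 10 mice. Levels in CPM are reads of a gene over all reads of the class in a mouse, and are not per length, so levels of different genes are not compared. Intervals cover counting error only. Those of pooled ratios treat each read as independent, although without molecular identifiers several reads can be copies of the same molecule. They also leave out the spread between cells and mice, so they are too narrow. Alternatives were DESeq2 1.42.0, limma 3.58.1 on log2(mean CPM + 1), RLE scaling, no filter on low counts, CD31-gate cells alone, cells thinned to 50000 reads, sex as a block, other minimums of cells per mouse, and leaving out each mouse. In data simulated from the contrast with blood cells (14906 genes), 34% of genes changed by 2 and 58% of those changed by 4 on the log2 scale were recovered, with 4 false calls.

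Besides list members, the text names up to 12 genes per direction against blood cells, and 5 per direction in the other contrasts. They are the largest folds among genes past the threshold, without overlap between classes, with a mean of at least 50 CPM and a read in at least 25% of cells of the higher class. The cell label, the lists and the tests were chosen with earlier results of these data known. One member of the valve list is counted with its list and is not reported here by name.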

Additional observations from a re-analysis of the deposited data

Results flagged for a closer look

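Of 28 genes examined over the 6 mice of the contrast with blood cells, 8 had 1 lymphatic sum far from the other 5 by Dixon's ratio of the gap to the range. For normally distributed values chance gives this in about 1 in 20 groups, a rate that could bear on Ccl21a and Ptx3 alone. These CPM come from sums of few cells and were not tested for normality, so the rate may not hold. Ccl21a was at 5780 CPM in the P7 male, with the next mouse at 723.7 CPM. Ptx3 was at 1489 CPM in the same mouse, with the next at 726.2 CPM. In that mouse the same cell held the highest value of both genes, Ccl21a at 11524 CPM and Ptx3 at 2604 CPM. The other 6 were blood endothelial genes with reads in the lymphatic cells of 1 mouse alone and 0 in the other 5, where the ratio is 1 by construction and says nothing beyond that. In the hyperoxia female these were Ly6a at 0.541 CPM, Aplnr at 0.135 CPM and Ly6c1 at 26.4 CPM. In the P1 female they were Car4 at 1.69 CPM and Ankrd33b at 0.130 CPM, and in the P1 male Adrb1 at 0.0573 CPM.

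The share of cells with at least 7 of 14 proliferation genes moved in opposite ways in lymphatic and blood endothelial cells from E18.5 to P1. With that minimum it was higher at P1 in the lymphatic cells of both mice and lower at P1 in the blood endothelial cells of both. The lymphatic mean was higher at P1 by 38.5 percentage points, and the blood mean differed by -26.9 points, a difference of 65.4 points between the classes. With at least 5 genes the P1 female (19.2%) was not above the E18.5 male (20%), and the difference was 64.8 points; with at least 9 genes it was 53 points. With 2 mice per age the exact permutation test of that difference gave p = 0.333, the smallest this design allows. The lymphatic mean at E18.5 weighs the female's 0 of 2 cells (exact interval up to 84.2%) equally with the male's 0 of 10. The lymphatic cells of the E18.5 and P1 males came from different sequencing runs, and only the females of these ages shared a run. The part of the run was not tested.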

How the results depend on the processing

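The count of genes past the threshold moved with the test far more than the direction of the genes chosen as past it did. DESeq2 in place of edgeR gave 3521 genes against blood cells, 2009 against venous cells, 120 for P1 against E18.5, 33 for P7 against P1, 1657 for P21 against P7, 47 for hyperoxia against P7, 23 for hyperoxia against P1 and 54 for the interaction. Limma on the mean CPM gave 1258 genes against venous cells and 0 for hyperoxia against P7. With mice of at least 2 cells of each class the count against blood cells was 2767, and 217 of these were higher; with at least 10 cells it was 741, and 299 against venous cells. RLE scaling gave 1 gene for P7 against P1, and mice with at least 5 lymphatic cells gave 2. With RLE scaling the count against blood cells was 1348, of which 36% were higher, beside 31% with TMM, and the median of all genes was -0.53. No filter on low counts, and likewise CD31-gate cells alone, gave 1 gene for P21 against P7 and 0 for hyperoxia against P7, and thinning gave 0 for the latter. Leaving out 1 mouse gave 698 to 1136 genes against blood cells, 385 to 722 against venous cells, 0 to 5 for P7 against P1, 2 to 725 for P21 against P7 and 0 to 10 for hyperoxia against P7. Against blood cells without the proliferative labels, 2 proliferation genes changed sign, Cdk1 from -0.24 to 1.82 and Aurkb from -0.43 to 4.20. All 24 genes named against blood cells kept their direction in every alternative, and 23 kept their call; Serinc2 lost it in 3 of 15. Of 83 list members past the threshold against blood cells, 53 passed in every alternative and all 83 kept their direction. All these genes were chosen as past the threshold in the same cells, and the 24 also as without overlap between classes. Their kept direction was thus nearly set by the choice and is no separate support. The adjusted p of the share by age (exact permutation) was 0.150 over all gates, 0.152 without proliferative labels and 0.175 to 0.345 with 1 mouse left out. With so few mice that test could hardly pass in any setting. P21 against P7 could not be fitted with mice of at least 5 lymphatic cells. The contrasts of lymphatic with blood and venous cells pair the classes within each mouse. No paired analysis was possible because the mice of different age and oxygen groups carry no shared replicate numbers; sex as a block was run as an alternative, and the runs that hold mice of several groups were not used as a block. The precision is limited by the 82 cells, and in 5 of the 10 mice by 5 cells or fewer.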
